A study of Homo sapiens with 66 samples.

Results

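The genes described here are 10 transcription factors that guide blood cells through the myeloid lineage: SPI1, CEBPA, CEBPB, CEBPD, CEBPE, GFI1, IRF8, KLF4, RUNX1 and MYB. They were taken by gene symbol, and all 10 were found among the 57992 gene identifiers analysed. RNA of 11 acute myeloid leukaemia (AML) cell lines was sequenced, F36P, HL60, KASUMI1, MOLM13, MONOMAC6, MV411, NB4, NOMO1, OCIAML2, OCIAML3 and THP1. Each line was kept in medium alone, called untreated here, or given etoposide for 24 hours at its own IC50, a cytotoxic concentration estimated for that line, so the dose differed from line to line. Etoposide poisons topoisomerase II and so breaks DNA. Each group had 3 libraries, described by the submitters as biological replicates, of cells combined from 3 wells, which gives 66 libraries. The study discarded the etoposide libraries of OCIAML2 in quality control, so counts over cell lines below are over the other 10 lines and OCIAML2 is given apart.

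Myeloid cells arise from stem and progenitor cells under a small set of DNA-binding factors. RUNX1 and MYB act in progenitors, where MYB keeps cells dividing and immature. SPI1 encodes PU.1, an ETS factor that all myeloid cells need, and CEBPA works with it at the step where granulocyte and monocyte precursors form. CEBPE and GFI1 then take part in granulocyte maturation, IRF8 and KLF4 in monocyte formation, and CEBPB and CEBPD in the response of mature or stressed cells. In AML these factors are often mutated, fused or silenced, and the levels of the set are commonly read as a sign of how far cells have differentiated. KASUMI1 carries the RUNX1-RUNX1T1 fusion and NB4 the PML-RARA fusion, while F36P has erythroid features and was grown with GM-CSF. Each line stands for 1 leukaemia.

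Libraries held between 17997404 and 24101670 reads on genes (median 20241014), and levels are given as CPM, the reads of a gene scaled by library size, with TMM normalization over all 66 libraries. The summed level of 7 myeloid markers was between 231.9 CPM in MV411 and 28240 CPM in KASUMI1 in untreated lines. That range came mostly from MPO, with 9.61 CPM in MV411 and 28030 CPM in KASUMI1, while CD33 was 103 and 80.0 CPM. The 6 erythroid markers were high in F36P, where they summed to 6646 CPM against 15.7 CPM in NOMO1, the next line. The 8 lymphoid markers summed to 180 CPM in untreated NOMO1, nearly all of it from CD3D, and to 20.6 CPM or less in the other lines. In bulk RNA, fewer cells of a type and less RNA per cell cannot be told apart. Scaling by library size alone would raise the median log2 change of all genes by 0.25 in F36P, 0.21 in NB4 and 0.17 in KASUMI1, by 0.10 to 0.13 in MV411, MONOMAC6 and HL60, and would shift it by less than 0.06 in the other lines, downward in MOLM13.

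In untreated cells the set did not behave as a block. SPI1 and MYB were well expressed in every line, CEBPA, GFI1 and RUNX1 were high in most lines, and CEBPE, IRF8 and KLF4 ranged from high levels to a few reads. The basal level differed between the 11 lines for all 10 genes (edgeR quasi-likelihood F-test, FDR below 0.05), as it did for 99.5% of the 18130 genes tested, so that test sets none of them apart. In the 55 comparisons of 2 lines, between 50.2% and 76.4% of all genes differed (median 67%). CEBPA differed in 54 of the 55 comparisons, RUNX1 in 53, CEBPE in 52, IRF8 and KLF4 in 51 each, GFI1 in 49, MYB in 46, CEBPD in 43, SPI1 in 40 and CEBPB in 36.

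**Figure D1:**
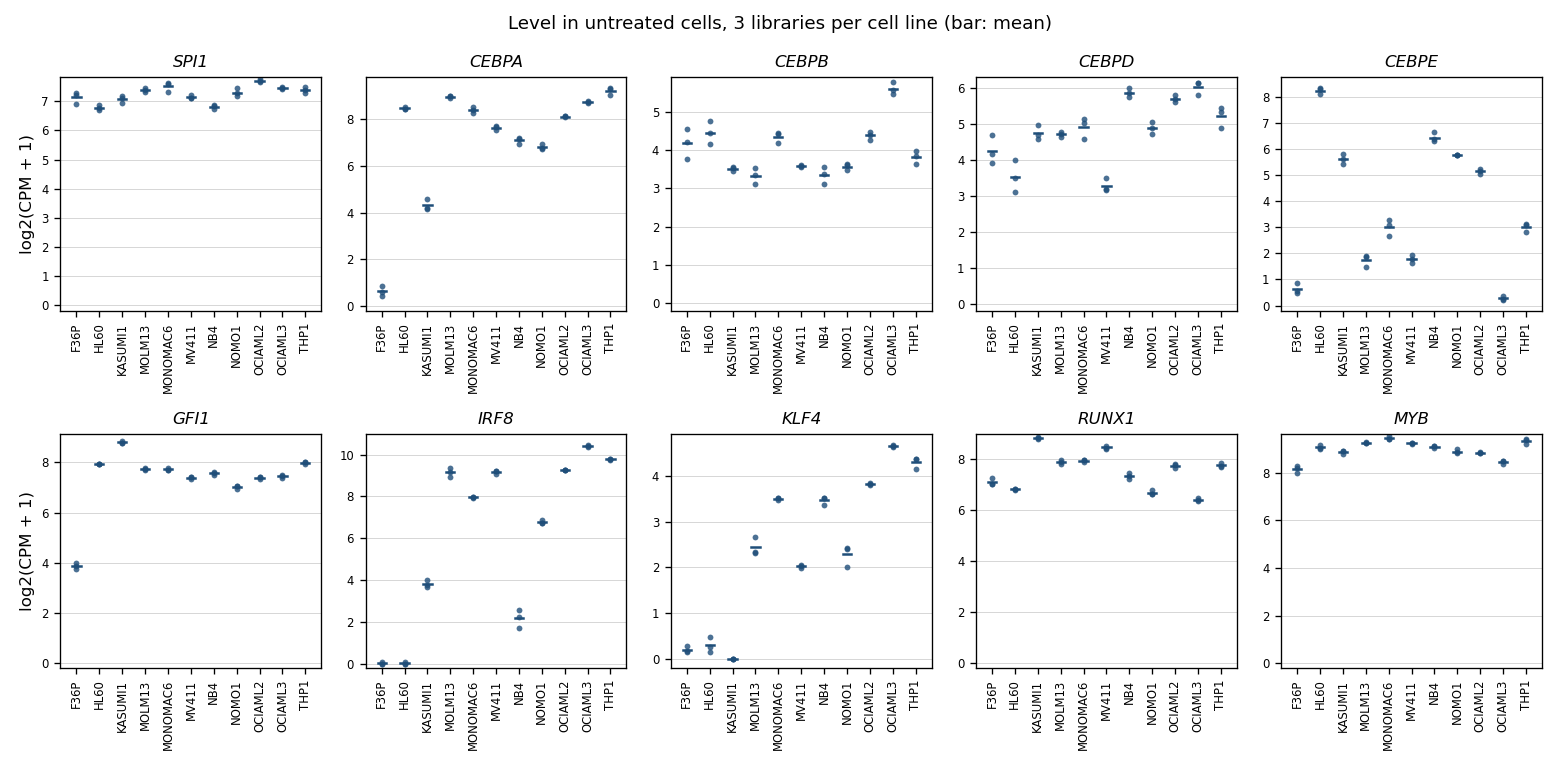
Level of each gene in untreated cells, as log2(CPM + 1) on a linear axis, by cell line, with 1 point per library and a bar at the mean of 3. SPI1 and MYB stay within a narrow band, whereas CEBPA in F36P, IRF8 in F36P and HL60, and KLF4 in KASUMI1, HL60 and F36P sit at or near 0.

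SPI1 (PU.1) had the flattest profile. Its mean level fell from 209.6 ± 8.27 CPM (SD, n = 3) in OCIAML2 through 183 in MONOMAC6, 176 in OCIAML3, 167 in MOLM13, 166 in THP1, 158 in NOMO1, 141 in F36P and in MV411, 135 in KASUMI1 and 112 in NB4 to 109 ± 6.84 CPM in HL60. Of the neighbours in that order, only KASUMI1 and NB4 differed (FDR 0.009). The erythroid line F36P thus held SPI1 at a middle level.

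CEBPA, which starts granulocyte and monocyte formation, ranged from very high levels to a trace. THP1 was highest at 592.5 ± 66.9 CPM, followed by MOLM13 with 495, OCIAML3 with 425.5, HL60 with 349, MONOMAC6 with 336, OCIAML2 with 274, MV411 with 197, NB4 with 135 and NOMO1 with 111. KASUMI1 stood well below these at 19.1 ± 3.29 CPM and F36P far below at 0.569 ± 0.249 CPM. Every pair of neighbours differed except HL60 and MONOMAC6 (FDR 0.56).

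CEBPB and CEBPD, the C/EBP factors of inflammation and stress, were both highest in OCIAML3. CEBPB reached 48.0 ± 5.32 CPM there and 21.2 in HL60, 19.9 in OCIAML2, 19.5 in MONOMAC6, 17.6 in F36P, 13.2 in THP1, 10.97 in MV411, 10.9 in NOMO1, 10.5 in KASUMI1, 9.25 in NB4 and 9.16 ± 1.52 CPM in MOLM13. OCIAML3 differed from HL60 (FDR 1.3e-08) and F36P from THP1 (FDR 0.022), and no other step passed. CEBPD was 65.4 ± 8.68 CPM in OCIAML3, 58.2 in NB4, 51.6 in OCIAML2, 36.8 in THP1, 29.8 in MONOMAC6, 28.9 in NOMO1, 26.3 in KASUMI1, 25.4 in MOLM13, 18.7 in F36P, 10.96 in HL60 and 8.82 ± 1.23 CPM in MV411. The steps from OCIAML2 to THP1, from MOLM13 to F36P and from F36P to HL60 passed the test, and the other steps in the CEBPD order did not.

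CEBPE, the C/EBP factor of late granulocyte maturation, was a gene of few lines. HL60 held 300.5 ± 27.2 CPM, NB4 85.4, NOMO1 53.3, KASUMI1 48.1 and OCIAML2 34.1 CPM. MONOMAC6 with 7.22 and THP1 with 7.06 CPM were not distinguishable, nor were MV411 with 2.48 and MOLM13 with 2.40 CPM. F36P had 0.557 ± 0.222 CPM from 30 reads in 3 libraries and OCIAML3 0.212 ± 0.0753 CPM from 13 reads. NOMO1 and KASUMI1 were also indistinguishable (FDR 0.29), and each remaining step in the order passed the test.

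IRF8 and KLF4, which act in monocytes, shared their highest line, OCIAML3. IRF8 was 1367 ± 42.6 CPM in OCIAML3, 869.9 in THP1, 615 in OCIAML2, 576 in MOLM13, 573 in MV411, 248 in MONOMAC6, 109 in NOMO1, 13.1 in KASUMI1 and 3.632 ± 1.402 CPM in NB4. F36P and HL60 each had 1 IRF8 read in 3 untreated libraries. OCIAML2, MOLM13 and MV411 were not distinguishable as neighbours, nor were F36P and HL60, and every other step passed the test. KLF4 was 24.1 ± 0.452 CPM in OCIAML3, 18.7 in THP1, 13.2 in OCIAML2, 10.3 in MONOMAC6, 10.1 in NB4, 4.46 in MOLM13, 3.91 in NOMO1 and 3.07 ± 0.0894 CPM in MV411. It dropped to 0.234 CPM in HL60 (14 reads) and 0.146 CPM in F36P (8 reads), and KASUMI1 had 0 reads, which allows up to 0.0544 CPM for counting error only. The steps from MONOMAC6 to NB4, from MOLM13 through NOMO1 to MV411 and from HL60 to F36P did not pass the test, and the others did.

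GFI1, a repressor needed for granulocytes, was highest in KASUMI1 at 450.0 ± 15.3 CPM and lowest in F36P at 13.5 ± 1.21 CPM. Between them lay THP1 with 253, HL60 with 244, MOLM13 with 213, MONOMAC6 with 211, NB4 with 189, OCIAML3 with 174, OCIAML2 with 167, MV411 with 166 and NOMO1 with 129 CPM. Neighbours differed from KASUMI1 to THP1, HL60 to MOLM13, MONOMAC6 to NB4, MV411 to NOMO1 and NOMO1 to F36P, and not elsewhere.

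Among the progenitor factors, RUNX1 was highest in KASUMI1, the line with the RUNX1 fusion, at 456 ± 11.9 CPM. The count is per gene and so takes in the RUNX1 part of fusion transcripts. MV411 followed with 355, MONOMAC6 with 246.5, MOLM13 with 238, THP1 with 217.5, OCIAML2 with 214, NB4 with 163, F36P with 138, HL60 with 113 and NOMO1 with 102 CPM, and OCIAML3 was lowest at 84.6 ± 3.26 CPM. MONOMAC6 and MOLM13 were not distinguishable, nor were THP1 and OCIAML2, and each other step passed. MYB was highest in MONOMAC6 at 712.5 ± 33.3 CPM, then THP1 with 654, MOLM13 with 616, MV411 with 605, NB4 with 548, HL60 with 544, NOMO1 with 477, KASUMI1 with 471, OCIAML2 with 462 and OCIAML3 with 349 CPM, and F36P was lowest at 286 ± 26.2 CPM. Only the steps from HL60 to NOMO1, OCIAML2 to OCIAML3 and OCIAML3 to F36P passed the test for MYB.

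Levels of different genes can be set side by side only per kilobase of exon. On that scale, in untreated lines, the median level over 11 lines was 105 CPM per kb for CEBPA, 98.9 for MYB and 77.2 for SPI1, then 33.6 for GFI1, 31.6 for IRF8, 23.1 for CEBPD, 13.7 for RUNX1, 7.18 for CEBPB, 4.09 for CEBPE and 1.22 CPM per kb for KLF4. CEBPA, MYB and SPI1 were therefore the most abundant mRNAs of the set in a typical line and KLF4 the least abundant.

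Etoposide moved the set in both directions. Of the 100 combinations of 10 genes and 10 lines, 96 had enough reads to be tested, leaving out IRF8 in F36P and HL60, KLF4 in KASUMI1 and CEBPE in OCIAML3. An FDR below 0.05 was reached in 71 of the 96, with a higher level in 34 and a lower level in 37, and a fold change above 2 as well in 22, of which 15 were induced and 7 repressed. CEBPB was higher in 10 of 10 lines and MYB lower in 10 of 10, KLF4 was higher in 8 of 9 and RUNX1 lower in 8 of 10. The other 6 genes went up in some lines and down in others. CEBPE was higher in 6 and lower in 2 of 9 lines, IRF8 higher in 2 and lower in 5 of 8, GFI1 higher in 2 and lower in 5, CEBPA higher in 3 and lower in 3, CEBPD higher in 1 and lower in 3, and SPI1 higher in 2 and lower in 1 of 10 lines.

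**Figure D2:**
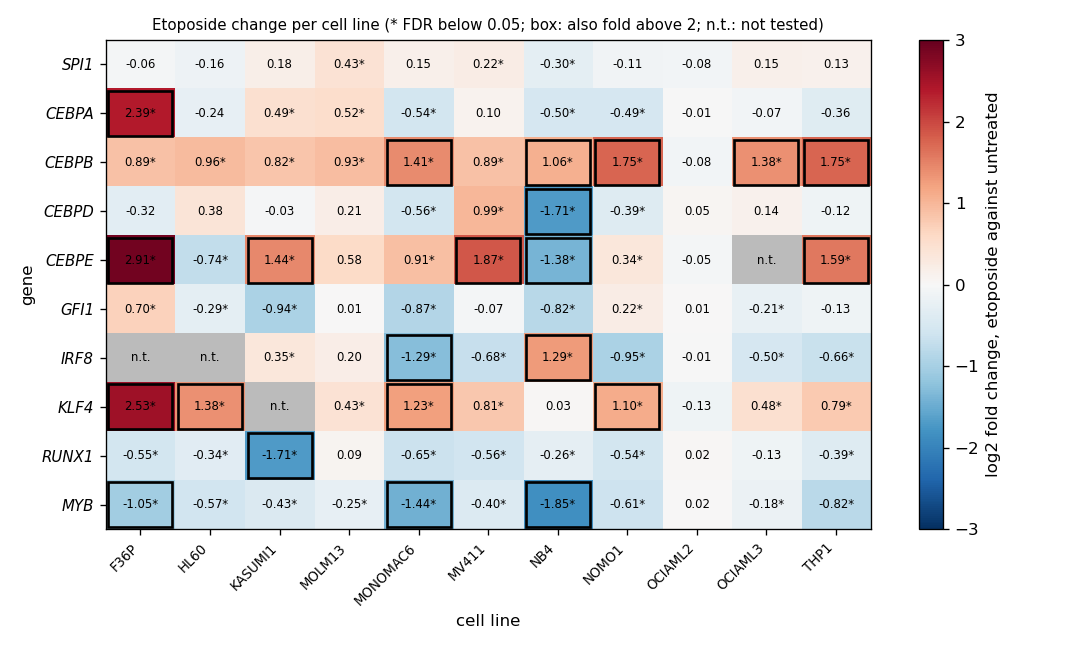
Log2 fold change of each gene (rows) after etoposide in each cell line (columns), with red for higher and blue for lower. A star marks an FDR below 0.05, a box a fold change above 2 as well, and grey with n.t. a combination not tested. The CEBPB row is red and the MYB row blue in every line but OCIAML2, where no gene of the set passed the test.

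These counts have to be read against how much of the transcriptome responded in each line. In F36P, 3 of the 9 genes tested were induced (CEBPA, CEBPE and KLF4) and 1 repressed (MYB), where 24.2% of all genes tested were induced and 6.67% repressed. With no minimum fold, 5 were higher and 2 lower in F36P, against 34.8% and 24.8% of all genes. CEBPA had 6, 15 and 10 untreated reads there, CEBPE 14, 7 and 9 and KLF4 2, 2 and 4. These 3 had enough reads to be tested only through the etoposide libraries, so they could hardly have been called repressed. In HL60, KLF4 alone of 9 was induced and none was repressed (5.34% and 1.23% of all genes), and with no minimum fold 2 were higher and 4 lower (17.5% and 15.0%). KLF4 in HL60, with 4, 8 and 2 untreated reads, was likewise tested only through the etoposide libraries. KASUMI1 induced CEBPE and repressed RUNX1, so 1 of 9 in each direction (14.6% and 6.52%), and 4 were higher and 3 lower without the fold (31.4% and 28.5%). In MOLM13 no gene of the 10 reached a 2-fold change (8.58% of all genes induced and 3.36% repressed), whereas 4 were higher and 1 was lower by FDR alone (28.1% in each direction). MOLM13 was the only one of the 10 lines without a call in the set.

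MONOMAC6 induced CEBPB and KLF4 and repressed IRF8 and MYB, so 2 of 10 in each direction (8.53% and 4.47% of all genes), and 3 were higher and 6 lower by FDR alone (31.8% and 30.5%). In MV411 only CEBPE was induced and none repressed (12.5% and 2.63%), with 5 higher and 3 lower by FDR (33.4% and 30.4%). NB4 had the most called genes, with CEBPB and IRF8 induced and CEBPD, CEBPE and MYB repressed (13.1% and 4.80%), and 2 were higher and 7 lower by FDR (31.1% and 28.8%). In NOMO1, CEBPB and KLF4 were induced and none repressed (8.33% and 4.42%), with 4 higher and 5 lower by FDR (28.5% and 23.9%). OCIAML3 induced CEBPB alone of 9 and repressed none (7.17% and 1.34%), with 2 higher and 3 lower by FDR (22.5% and 18.1%). THP1 induced CEBPB and CEBPE and repressed none of 10 (6.38% and 3.46%), with 3 higher and 3 lower by FDR (16.1% and 15.9%). The median log2 change of the tested genes of the set was positive in F36P (0.70), MOLM13 (0.32), KASUMI1 (0.18) and MV411 (0.16) and negative in the other 6 lines, down to -0.55 in MONOMAC6, while the median of all genes lay between -0.03 and 0.09.

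A shared direction was tested with 1 log2 change per line, so that the 10 lines were the replicates (limma, adjusted over 19974 genes). Of the 10 genes, CEBPB and KLF4 passed in the upward direction and MYB and RUNX1 in the downward direction, against 21.6% of all genes higher and 13.6% lower. The mean change was 1.21 ± 0.33 (SD over 10 lines, FDR 7.28e-05) for CEBPB and 0.83 ± 0.61 for KLF4 (FDR 0.00486). It was -0.73 ± 0.54 for MYB (FDR 0.00296) and -0.48 ± 0.48 for RUNX1 (FDR 0.0163). KLF4 in KASUMI1, which has no reads, enters that mean as a change of 0, and the other 9 lines were above 0. CEBPE had a mean of similar size, 0.82 ± 1.22, higher in 8 of 10 lines, but its lines were too spread for it to pass (FDR 0.071), and without F36P the mean was 0.60 (FDR 0.135). The means of CEBPA (0.14 ± 0.87), SPI1 (0.09 ± 0.22), IRF8 (-0.08 ± 0.92), CEBPD (-0.12 ± 0.70) and GFI1 (-0.21 ± 0.52) were within the spread of the lines, with FDR between 0.261 and 0.82.

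Promoter windows are shown for the 4 genes whose mean change over lines passed, upward for CEBPB and KLF4 and downward for MYB and RUNX1. Each window has 250 bases before and 50 after a RefSeq transcription start on GRCh38.p14, read along the gene's own strand, and matches to the motifs named after them are in capitals.
CEBPB, chr20:50190580-50190879, plus strand: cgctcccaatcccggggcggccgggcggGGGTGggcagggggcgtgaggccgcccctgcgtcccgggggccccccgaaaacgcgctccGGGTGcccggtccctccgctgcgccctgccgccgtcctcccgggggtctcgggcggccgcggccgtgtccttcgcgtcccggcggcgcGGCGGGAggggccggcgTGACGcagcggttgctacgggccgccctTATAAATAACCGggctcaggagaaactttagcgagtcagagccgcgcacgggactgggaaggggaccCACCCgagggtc
KLF4, chr9:107489720-107490019, minus strand: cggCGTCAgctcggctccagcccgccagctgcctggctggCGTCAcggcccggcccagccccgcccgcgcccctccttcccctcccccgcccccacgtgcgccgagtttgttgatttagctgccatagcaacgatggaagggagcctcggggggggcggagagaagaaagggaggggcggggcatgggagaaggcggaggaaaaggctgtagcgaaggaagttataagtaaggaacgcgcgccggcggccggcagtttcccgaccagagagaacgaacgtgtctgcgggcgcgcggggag
MYB, chr6:135181058-135181357, plus strand: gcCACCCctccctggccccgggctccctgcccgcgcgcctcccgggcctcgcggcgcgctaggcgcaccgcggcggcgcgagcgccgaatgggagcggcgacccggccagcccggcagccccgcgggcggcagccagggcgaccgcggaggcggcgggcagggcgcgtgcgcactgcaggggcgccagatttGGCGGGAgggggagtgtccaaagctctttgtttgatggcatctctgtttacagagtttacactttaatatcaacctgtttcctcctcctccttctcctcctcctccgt
RUNX1, chr21:34888650-34888949, minus strand: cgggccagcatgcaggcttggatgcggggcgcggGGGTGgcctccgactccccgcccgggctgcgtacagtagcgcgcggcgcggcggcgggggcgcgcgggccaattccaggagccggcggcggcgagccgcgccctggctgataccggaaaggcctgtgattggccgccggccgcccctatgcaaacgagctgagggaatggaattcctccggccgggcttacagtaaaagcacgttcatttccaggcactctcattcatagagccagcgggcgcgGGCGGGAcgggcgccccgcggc

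The CEBPB and MYB windows sit at the start of the annotated gene. The transcription start of the KLF4 window lies 713 bases inside the annotated gene, and that of the RUNX1 window lies 1115968 bases inside it, well downstream of the most distal start. The letters searched on both strands were TTNCNNAA for C/EBP factors, TGACG for the core of the cyclic AMP response element (CRE), GAGGAAG for PU.1, TGTGGT for RUNX, TAACNG for MYB, CACCC for KLF factors and GGCGGGA for E2F factors, and TATAAA was searched on the gene's strand alone. Of 35116 windows of the same length, 36.8% held the C/EBP letters, 24.6% the CRE letters, 13.6% those of PU.1, 13.1% those of RUNX, 20.8% those of MYB, 59.9% those of KLF, 15.4% those of E2F and 7.3% the TATA letters. The CEBPB window held TATAAA at position -29 from the start, directly followed by MYB letters at -23, with CRE letters at -57, E2F letters at -74 and 3 KLF matches. In the KLF4 window the only matches were the CRE letters, at -247 and -210. The MYB window held E2F letters at -58 and KLF letters at -248, and the RUNX1 window E2F letters at 29 and KLF letters at -216. Matches in these windows did not overlap, and a match is only a run of letters, not a shown binding site.

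CEBPB, an inducible C/EBP factor, lies on the plus strand at chr20:50190830-50192668 (GRCh38) with all of its exon sequence in 1 block. Its largest changes were in THP1 and NOMO1. In THP1 the untreated libraries had 11.4, 14.8 and 13.4 CPM and the etoposide libraries 40.3, 58.0 and 38.7 CPM, a log2 change of 1.75 (SE 0.17, FDR 6.34e-07). In NOMO1 the values were 10.2, 11.4 and 11.1 CPM before and 38.5, 36.2 and 33.2 CPM after, a log2 change of 1.75 (SE 0.10, FDR 5.49e-08). The groups did not overlap in either line, nor in any other of the 10. The share of all genes without overlap was not computed, so here and below non-overlap sets no gene apart. MONOMAC6 went from 17.2, 20.9 and 20.3 CPM to 50.6, 51.8 and 52.5 CPM (log2 change 1.41, FDR 2.26e-08). OCIAML3, which began highest, went from 43.2, 53.7 and 46.97 CPM to 112, 114 and 145 CPM (log2 change 1.38, FDR 4.64e-05). The lines that began highest and lowest therefore both gained CEBPB mRNA.

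NB4 rose by 1.06 on the log2 scale (7.60, 9.34 and 10.8 CPM before, 17.5, 19.5 and 22.7 CPM after, FDR 7.82e-06), which is close to the 2-fold limit, and without untreated replicate 1 or etoposide replicate 3 the change was 0.92 or 0.95 and the call was lost. The remaining lines lay just under that limit, HL60 with a log2 change of 0.96, MOLM13 with 0.93, MV411 with 0.89, F36P with 0.89 and KASUMI1 with 0.82, all with FDR below 0.05. Left-out libraries or scaling by library size carried CEBPB past 2-fold in HL60, MOLM13, MV411 and F36P. The size of the rise differed between lines (quasi-likelihood F-test of line by treatment, FDR 0.00089, and 0.0787 without replicate 2), as it did for 74.1% of the 19974 genes tested, and THP1 and NOMO1 exceeded the mean of the other 9 lines by 0.64 (FDR 0.0039) and 0.57 (FDR 0.013).

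KLF4, a zinc-finger factor that drives monocyte formation and halts division, lies on the minus strand at chr9:107484852-107490482. It rose in the lines where it was measurable except NB4. In MONOMAC6 it went from 10.5, 10.5 and 10.0 CPM to 23.9, 23.2 and 25.4 CPM, a log2 change of 1.23 (SE 0.08, FDR 7.11e-08). In NOMO1 it went from 3.01, 4.40 and 4.31 CPM to 7.51, 9.63 and 7.60 CPM, a log2 change of 1.10 (SE 0.18, FDR 0.000167), which fell to 0.95 without untreated replicate 1 or without etoposide replicate 2. These 2 rises came from lines that already had KLF4 mRNA, and the groups did not overlap.

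The highest log2 change of KLF4, 2.53 in F36P (SE 0.42, FDR 0.000375), rested on 8 reads before and 56 after. The F36P libraries had 0.116, 0.112 and 0.209 CPM untreated and 1.09, 0.708 and 0.929 CPM after etoposide, so even the treated level was below that of any other untreated line but HL60 and KASUMI1. HL60 went from 14 to 39 reads in all, a log2 change of 1.38 (FDR 0.0309), a call that DESeq2 did not make (FDR 0.106) and that was lost without untreated replicate 1 or 3 or etoposide replicate 1 or 3. MV411 (0.81), THP1 (0.79), OCIAML3 (0.48) and MOLM13 (0.43) rose by less than 2-fold. NB4 stayed at 10.4, 9.29 and 10.4 CPM before and 9.15, 10.1 and 12.5 CPM after (log2 change 0.03, FDR 0.888), and KASUMI1 had 0 reads before and after.

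**Figure D3:**
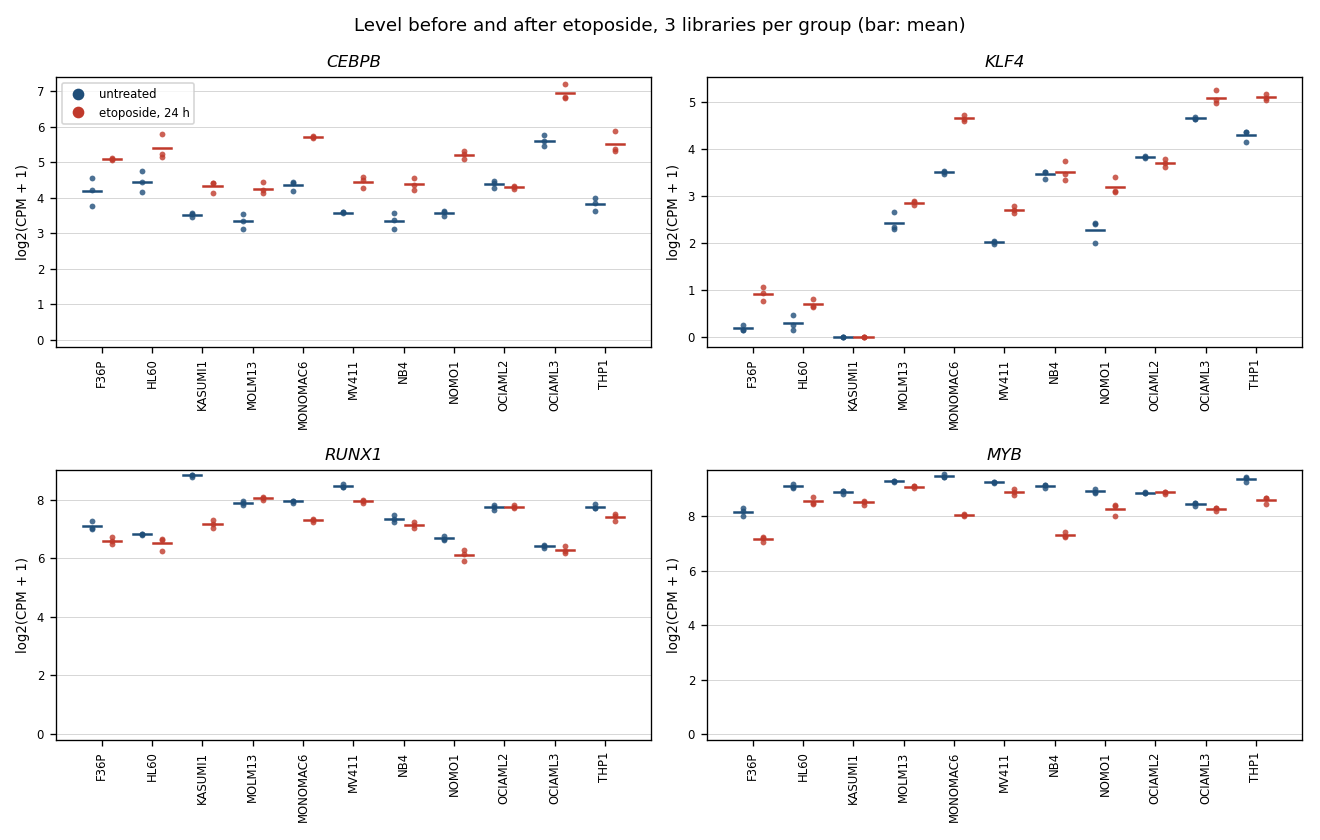
Level of CEBPB, KLF4, RUNX1 and MYB by cell line before (blue) and after (red) etoposide, as log2(CPM + 1), with 1 point per library and a bar at the mean of 3. Red sits above blue for CEBPB and below blue for MYB in each of the 10 lines, and in OCIAML2 the groups lie close together, with KLF4 slightly lower after etoposide in all 3 libraries.

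MYB, the factor that keeps progenitors cycling, lies on the plus strand at chr6:135181308-135219173. NB4 lost most, going from 562.5, 521.5 and 560.1 CPM to 168, 150.5 and 154 CPM, a log2 change of -1.85 (SE 0.08, FDR 4.12e-11). MONOMAC6 went from 751, 689.6 and 697 CPM to 263, 253 and 269 CPM, a log2 change of -1.44 (SE 0.05, FDR 4.17e-10). The 3 treated libraries lay far below the 3 untreated ones in both lines. In F36P the values were 258, 291 and 309 CPM before and 151, 146 and 132 CPM after (log2 change -1.05, FDR 4.25e-05), and this call was lost under scaling by library size, where the change was -0.80, under the 5 CPM filter (-0.89), in 1 fit of 60 libraries (-0.997) and without etoposide replicate 3 (-0.99). MYB kept less than a 2-fold fall in THP1 (-0.82), NOMO1 (-0.61), HL60 (-0.57), KASUMI1 (-0.43), MV411 (-0.40), MOLM13 (-0.25) and OCIAML3 (-0.18, FDR 0.041). The fall differed between lines (FDR 5.99e-20), being larger than the mean of the other 9 by 1.19 in NB4, 0.79 in MONOMAC6 and 0.30 in F36P.

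RUNX1, the core-binding factor subunit that binds DNA, lies on the minus strand at chr21:34787801-36004667. Its only call was in KASUMI1, where it went from 467, 443 and 459 CPM to 157, 132 and 145 CPM, a log2 change of -1.71 (SE 0.08, FDR 5.75e-07). KASUMI1 thus moved from the highest RUNX1 level of the 11 lines to a level near that of treated NB4 (140.5 CPM). RUNX1T1, the fusion partner, was tested in KASUMI1 alone, where its mean went from 257 ± 10.6 to 83.1 ± 8.78 CPM (log2 change -1.68, FDR 1.03e-06), and this gene was singled out after its values were seen. Transcripts of the fusion and of the normal allele cannot be told apart in these counts. The KASUMI1 fall exceeded the mean of the other lines by 1.31 (FDR 2.7e-17). RUNX1 fell by less than 2-fold in MONOMAC6 (-0.65), MV411 (-0.56), F36P (-0.55), NOMO1 (-0.54), THP1 (-0.39), HL60 (-0.34) and NB4 (-0.26), and it did not pass in OCIAML3 (-0.13) or MOLM13 (0.09).

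The remaining 6 genes had no shared direction, and for each of them the change differed between lines. CEBPE, which lies on the minus strand at chr14:23117036-23120256, showed the widest split. In MV411 it went from 2.47, 2.12 and 2.84 CPM to 8.06, 9.66 and 10.4 CPM, a log2 change of 1.87 (SE 0.15, FDR 2.29e-10). In THP1 it went from 6.05, 7.74 and 7.41 CPM to 16.4, 26.0 and 23.2 CPM, a log2 change of 1.59 (SE 0.18, FDR 3.38e-06). KASUMI1 rose from 42.2, 47.8 and 54.4 CPM to 106, 172 and 125 CPM, a log2 change of 1.44 (SE 0.17, FDR 8.01e-05). No treated library overlapped an untreated one in these 3 lines.

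The 2 lines with the most CEBPE went the other way. NB4 fell from 81.4, 97.9 and 76.8 CPM to 28.2, 37.1 and 36.2 CPM, a log2 change of -1.38 (SE 0.12, FDR 4.88e-08). HL60 fell from 270.0, 322 and 310 CPM to 158.5, 228 and 164 CPM, a log2 change of -0.74 (SE 0.13, FDR 0.000957). Against the mean of the other 9 lines the NB4 change was lower by 2.45 (FDR 8.6e-15) and the HL60 change by 1.75 (FDR 2.6e-10). F36P had the largest rise, a log2 change of 2.91 (SE 0.28, FDR 1.12e-05), from 30 reads to 264, which took it from 0.557 to 4.32 CPM. MONOMAC6 (0.91) and NOMO1 (0.34) also rose, MOLM13 missed the threshold (0.58, FDR 0.0508, and 0.0133 with the replicate block), and OCIAML3 had 13 reads before and 26 after.

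**Figure D4:**
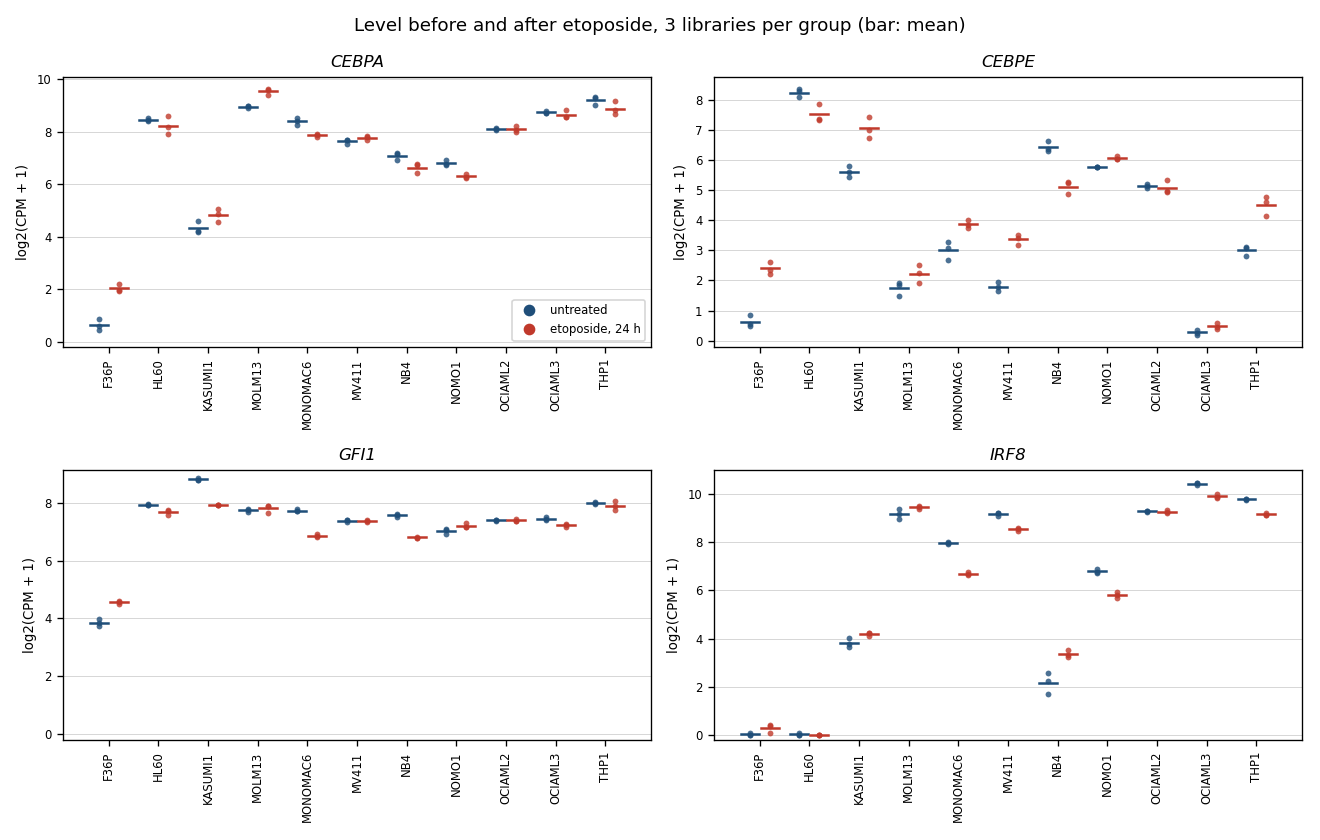
Level of CEBPA, CEBPE, GFI1 and IRF8 by cell line before (blue) and after (red) etoposide, as log2(CPM + 1), with 1 point per library and a bar at the mean of 3. CEBPE rises in F36P, KASUMI1, MV411 and THP1 and falls in HL60 and NB4, and IRF8 falls in MONOMAC6, MV411, NOMO1, OCIAML3 and THP1 and rises in NB4.

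IRF8, on the plus strand at chr16:85899116-85922606, fell where it was abundant and rose where it was scarce, with MOLM13 as an exception. MONOMAC6 went from 249.3, 252.5 and 243 CPM to 98.8, 99.99 and 106 CPM, a log2 change of -1.29 (SE 0.05, FDR 1.02e-09). NOMO1 went from 103.5, 117 and 106 CPM to 60.1, 50.5 and 55.0 CPM, a log2 change of -0.95 (SE 0.09, FDR 2.02e-06), which passed 2-fold without etoposide replicate 1. OCIAML3, the highest line, went from 1382, 1401 and 1320 CPM to 940.0, 915 and 1025 CPM (log2 change -0.50, FDR 0.000197). THP1 (-0.66) and MV411 (-0.68) fell as well, again with no overlap between groups. NB4 was the opposite case, going from 5.02, 3.66 and 2.22 CPM to 10.6, 8.29 and 8.85 CPM, a log2 change of 1.29 (SE 0.21, FDR 6.49e-05). KASUMI1 rose by 0.35 (FDR 0.0287), and MOLM13, at 576 CPM untreated, had a change of 0.20 that missed the threshold (FDR 0.0905, and 0.0224 with the replicate block). F36P had 1 read before and 14 after and was not tested, and HL60 had 1 and 0.

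CEBPA, on the minus strand at chr19:33299934-33302534, was called only in F36P, where it went from 0.347, 0.839 and 0.522 CPM to 2.83, 3.59 and 2.93 CPM, a log2 change of 2.39 (SE 0.30, FDR 6.07e-05). The treated level was still far below that of every other line. MOLM13 rose from 476.5, 502 and 507.5 CPM to 674, 774.5 and 783 CPM (log2 change 0.52, FDR 0.000111), and KASUMI1 rose by 0.49 (FDR 0.0232). MONOMAC6 (-0.54), NB4 (-0.50) and NOMO1 (-0.49) fell by less than 2-fold. THP1, with the highest level, had a change of -0.36 that missed the threshold (FDR 0.0561).

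In F36P the rises of CEBPA, CEBPE and KLF4 came beside those of other genes, with 24.2% of all genes induced and, among markers, 3 of the 6 lymphoid ones and 3 of the 3 epithelial or stromal ones tested. The summed level of the 8 lymphoid markers went from 9.42 to 28.3 CPM and that of the 4 epithelial or stromal markers from 0.551 to 8.16 CPM. Of the 6 erythroid markers, 5 were lower and the sum went from 6646 to 4324 CPM. The part of these movements in the F36P rises was not tested.

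GFI1, on the minus strand at chr1:92473043-92486925, never reached a 2-fold change. It fell in KASUMI1 from 443, 439 and 467.5 CPM to 241, 243 and 243 CPM (log2 change -0.94, SE 0.07, FDR 3.51e-06), in MONOMAC6 from 209, 217 and 208 CPM to 113, 121 and 111 CPM (log2 change -0.87, FDR 2.75e-08) and in NB4 from 192.5, 181 and 195 CPM to 113, 109.8 and 109 CPM (log2 change -0.82, FDR 2.26e-07). The groups were far apart in these 3 lines. HL60 (-0.29) and OCIAML3 (-0.21) fell slightly, and F36P (0.70, FDR 0.000579) and NOMO1 (0.22, FDR 0.0355) rose. GFI1 was thus reduced most in the line where it began highest.

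CEBPD, a C/EBP factor of inflammation on the minus strand at chr8:47736913-47738164, fell in NB4 from 63.9, 57.2 and 53.5 CPM to 16.5, 18.8 and 19.8 CPM, a log2 change of -1.71 (SE 0.11, FDR 1.46e-09). MV411 went the other way, from 10.2, 8.20 and 8.02 CPM to 14.5, 17.3 and 22.2 CPM, a log2 change of 0.99 (SE 0.15, FDR 1.92e-05) that passed 2-fold under 6 of the alternatives. Both changes differed from the mean of the other 9 lines, by -1.72 in NB4 (FDR 5.9e-08) and by 1.27 in MV411 (FDR 9.7e-05). MONOMAC6 (-0.56) and NOMO1 (-0.39) fell, and the other 6 lines did not pass. NB4 therefore lost CEBPD and CEBPE while it gained CEBPB.

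SPI1, on the minus strand at chr11:47354860-47378547, moved least. MOLM13 rose from 165, 176 and 159.5 CPM to 205, 245.5 and 251 CPM (log2 change 0.43, SE 0.08, FDR 0.00141) and MV411 by 0.22 (FDR 0.00394), while NB4 fell by 0.30 on the log2 scale (FDR 0.0198). The other 7 lines had changes between -0.16 and 0.18 that did not pass, although MONOMAC6 (0.15, FDR 0.0895) passed with the replicate block (FDR 6.02e-05). Small as they were, the SPI1 changes differed between lines (FDR 0.00343).

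Seen line by line, NB4 departed most often from the rest. Its change differed from the mean of the other 9 lines for 8 of the 10 genes, where 19.5% of all genes tested did. F36P, KASUMI1 and MOLM13 departed for 5 genes each (33.2%, 29.8% and 24.8% of all genes), MV411 and NOMO1 for 4 (13.1% and 23.6%), MONOMAC6 and THP1 for 3 (15.7% and 25.1%), and HL60 and OCIAML3 for 2 (17.0% and 16.5%). With 0 reads in KASUMI1, the KLF4 contrast had an SE of 67 or more in every line, so KLF4 could not count. IRF8 could not count either in MONOMAC6 (difference -1.36, SE 137), NOMO1 (SE 35.1), MV411 (6.62), THP1 (5.95) and OCIAML3 (3.36). The F36P count does include IRF8 (difference 3.695, SE 0.9165), which rested on 1 read before and 14 after. For IRF8 in NB4, the mean of the other 9 lines included F36P and HL60, the latter with 1 read before and 0 after. The order of the lines after NB4 is therefore not settled by these counts. In NB4 the genes were SPI1, CEBPA, CEBPD, CEBPE, GFI1 and MYB with a lower change than elsewhere and IRF8 and RUNX1 with a higher one. MOLM13 had higher changes for SPI1, CEBPA, GFI1, RUNX1 and MYB, so MOLM13 kept more of these mRNAs than the average line.

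In OCIAML2 none of the 10 genes passed, with log2 changes between -0.13 (KLF4) and 0.05 (CEBPD) and an FDR of 0.9988 for each. Of the 13604 genes tested there 0 were called, so 0% were induced and 0% repressed, and DESeq2 and edgeR's exact test also called 0. With no minimum fold 7 genes were higher by quasi-likelihood (0.0515%) and none lower (0%), and 460 genes had an unadjusted p below 0.05.

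Genes of the same pathways were counted in the same fits. Of 41 other blood cell transcription factors, IRF7, an interferon response factor, was induced in 8 of 10 lines and DDIT3, a C/EBP relative of the stress response, in 7, with log2 changes up to 3.55 and 2.57. BCL6, a repressor, was induced in 6 of 10 lines. Across the list between 0 and 6 members were repressed per line, with most in F36P, where 13 of 37 tested were induced and 6 repressed (24.2% and 6.67% of all genes). The median change of the list lay between -0.00086 in KASUMI1 and 0.27 in MONOMAC6.

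Among 17 monocyte and macrophage genes, the co-stimulatory receptor CD86 was induced in 10 of 10 lines and the integrins ITGAM and ITGAX in 9 and 8. The median log2 change of the tested genes of this list was between 0.31 in NOMO1 and 2.56 in KASUMI1, above the median of all genes in every one of the 10 lines. Between 4 and 10 of them were induced per line and at most 1 was repressed, where 5.34% to 24.2% of all genes were induced and 1.23% to 6.67% repressed, depending on the line. Some of them passed the read filter only through the etoposide libraries. CSF1R in F36P had 9, 5 and 13 reads before and 155, 144 and 153 after, and CD14 in NOMO1 2, 8 and 7 before and 15, 17 and 11 after. Such genes could hardly be called repressed, so these counts and medians are partly set by the filter. The 20 granulocyte genes split. The chemoattractant receptor FPR1 was induced in all 7 lines where it was tested, S100A9 in 7 of 10 and the antimicrobial peptide CAMP in all 6, while the primary granule protease PRTN3 was repressed in 7 of 9. In some lines FPR1 and CAMP passed the read filter only through the etoposide libraries, so being tested there nearly fixed the call. CAMP in F36P had 0 reads in each untreated library and 25, 26 and 13 after etoposide. FPR1 in MONOMAC6 had 0, 2 and 3 reads before and 69, 83 and 60 after. Granulocyte genes were repressed in 7 lines, with 4 of 10 tested in NB4 (4.80% of all genes), 3 of 14 in MONOMAC6 (4.47%) and 3 of 13 in NOMO1 (4.42%). The others were HL60 with 2 of 9 (1.23%), KASUMI1 with 2 of 12 (6.52%), OCIAML3 with 1 of 12 (1.34%) and THP1 with 1 of 13 (3.46%). The same lines also had induced granulocyte genes, 6 in KASUMI1 (14.6% of all genes), 5 in OCIAML3 (7.17%) and 4 in NOMO1 (8.33%). THP1 had 4 (6.38%), MONOMAC6 3 (8.53%), HL60 2 (5.34%) and NB4 2 (13.1%). MV411 had 7 of 12 induced (12.5%) and MOLM13 6 of 12 (8.58%), and neither had any repressed (2.63% and 3.36%). CEBPE rose in some of the 7 lines with repressed granulocyte genes and fell in others, and a link to CEBPE was not tested. F36P had 8 of 10 induced and none repressed, against 24.2% and 6.67% of all genes. Several of these had almost no reads in untreated F36P, as CXCR2 with 0 reads in each library and BPI with 0, 1 and 0. They passed the filter through the etoposide libraries and could not be called repressed, so the F36P count is largely set by that. Of 12 progenitor genes, MYC was repressed in 6 of 10 lines, BCL2 in 4 and FLT3 in 3 of 9, and KIT was induced in 3 and repressed in 1 of 6. In KASUMI1 5 of 10 tested were repressed (6.52% of all genes), in MONOMAC6 4 of 8 (4.47%) and in NOMO1 3 of 11 (4.42%). F36P had 3 of 9 repressed (6.67%) and also 3 induced (24.2%), and NB4 had 2 of 7 repressed (4.80%). MV411, OCIAML3 and THP1 had 1 repressed each (2.63%, 1.34% and 3.46%), and HL60 and MOLM13 had 0 (1.23% and 3.36%). Outside F36P at most 1 was induced per line.

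Across the 11 untreated lines, the mean log2 CPM of each gene was correlated with that of 10642 genes with at least 5 CPM on average. With 11 points and so many genes, high values arise easily, and they describe these lines only. F36P lay far below the other lines for CEBPA and GFI1, and the values were not recomputed without it. SPI1 was most like LYZ (Pearson r 0.936), the lysozyme gene, and AGT (0.93). CEBPA was most like P2RY2 (0.963) and HDAC5 (0.956), CEBPB like EHBP1 (0.889) and RO60 (0.879), and CEBPD like SELENOW (0.905) and KCNE3 (0.886). CEBPE was most like STAG3L5P (0.915) and MPO (0.899), the myeloperoxidase gene of granulocyte precursors. IRF8 was most like MS4A14 (0.975) and HOXA9 (0.971), KLF4 like IL1RN (0.953) and CD1D (0.946), and GFI1 like PLPPR3 (0.963) and OSBPL1A (0.947). RUNX1 was most like TMEM80 (0.909) and PDCD4 (0.886), and MYB like RPL21 (0.939) and ANKRD10 (0.917). The most opposed genes were OXNAD1 for SPI1 (-0.937), BCL2L1 for CEBPA (-0.965), SPNS2 for CEBPB (-0.907), ZNHIT6 for CEBPD (-0.818), OPTN for CEBPE (-0.942), ST6GALNAC1 for GFI1 (-0.952), PIAS2 for IRF8 (-0.928), RPIA for KLF4 (-0.923), IFT22 for RUNX1 (-0.857) and PLXNA1 for MYB (-0.934).

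Within the set, SPI1 and IRF8 had the highest correlation over the 11 lines (r 0.769, and 0.852 without F36P), followed by IRF8 and KLF4 (0.744, and 0.665 without F36P). CEBPA and GFI1 had r 0.742, which rested on F36P, since without that line it was -0.429. CEBPE and IRF8 had r -0.359, and -0.815 without F36P, so that among the other 10 lines those rich in CEBPE mRNA tended to be poor in IRF8 mRNA. Its ends lay near the floor, with 1 untreated IRF8 read in HL60 and 13 untreated CEBPE reads in OCIAML3. OCIAML2 went against that tendency, with 34.1 CPM of CEBPE and 615 CPM of IRF8. CEBPB and RUNX1 had the most negative value over all 11 lines (-0.541).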

How the data were processed

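RNA of 11 AML cell lines, untreated or treated with etoposide for 24 hours, was sequenced in 66 libraries, 3 per group. According to the methods and the submitters' processing notes, the authors checked reads with FastQC 0.11.5, mapped them with STAR 2.5.3a to GRCh38.p7 and gencode release 25, and used edgeR 3.20.1. They deposited raw read counts, 1 value per gene and library. Of 716 genes that sit entirely within an exon on the other strand, 470 had reads, so the counting used strand, and the antisense genes of CEBPA, CEBPB and MYB had 924 reads or fewer over all libraries. Groups and replicate numbers come from the sample labels.

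The 10 genes, the other gene lists and the tests were chosen with earlier results of these data known. Identifiers (57992 after leaving out 45 pseudoautosomal copies on chromosome Y with 0 reads) were matched to gencode release 44 for 56948. Each line was tested in R 4.3.3 with edgeR 4.0.16 (filterByExpr with a minimum count of 10 and total of 15, TMM, robust quasi-likelihood test, Benjamini-Hochberg adjustment over all genes tested). A gene was called induced or repressed at an FDR below 0.05 with more than a 2-fold change. Differences between lines came from 1 fit of 60 libraries, basal differences from 33 untreated libraries, and the mean change from limma 3.58.1 on 1 log2 change per line with a prior count of 2. Replicates of a group always differed by more than sampling noise (chi-square per degree of freedom at least 2.05). All 10 genes are named, with up to 4 genes of each other list called in most lines, and per gene the 2 most like and the 1 least like it over the untreated lines. Some genes that this rule names are not reported here. In MOLM13, MONOMAC6, NB4 and OCIAML2 same-numbered libraries deviated together (lowest correlation of a pair 0.142), so the replicate numbers may pair those libraries. Single pairs in the other lines ran from -0.754 in OCIAML3 to 0.718 in KASUMI1, so the check is weak. Alternatives were DESeq2 1.42.0, edgeR's exact test, other scalings, filters and prior counts, and libraries left out. The steps were tested on simulated data. Promoter windows are from RefSeq for 8 of the 10 genes, and proteins were not used here. Intervals and limits cover counting error only, and p-values reflect the spread between libraries, or between cell lines for the mean change. Python 3.11.15 with pandas 2.3.3, numpy 2.4.6 and matplotlib 3.10.9 did the rest.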

Additional observations from a re-analysis of the deposited data

Results flagged for a closer look

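For all 10 genes the change after etoposide differed between the 10 cell lines, by edgeR's quasi-likelihood F-test of the line by treatment terms, and each is listed here for that reason. The FDR was 1.95e-21 for GFI1, 5.99e-20 for MYB, 3.59e-18 for CEBPE, 5.1e-18 for IRF8, 1.74e-16 for RUNX1, 2.02e-12 for CEBPA, 5.05e-08 for CEBPD, 1.57e-07 for KLF4, 0.00089 for CEBPB and 0.00343 for SPI1. The same test passed for 74.1% of all 19974 genes, so a difference between lines was common. For MYB and CEBPB the lines differed in size and not in direction, whereas CEBPE, IRF8, CEBPA, CEBPD, GFI1 and SPI1 each had lines that passed in opposite directions. The dose was the IC50 of each line, so line and dose cannot be told apart.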

How the results depend on the processing

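Of 22 calls, 15 were inductions and 7 repressions. With no minimum fold these counts became 34 and 37. With a replicate block, which the pairing check allows in MOLM13, MONOMAC6, NB4 and OCIAML2, they stayed at 15 and 7 and no call of the 22 changed in those lines. In the other lines the check did not pair the libraries, and the block changed no call there either. By FDR alone, CEBPE and IRF8 in MOLM13 and SPI1 in MONOMAC6 passed with the block and not without it. Leaving out 1 library per group gave 13 to 17 inductions and 6 to 8 repressions. DESeq2 gave 14 and 7, edgeR's exact test and RLE scaling 15 and 7, library size alone 20 and 6, a filter at 5 CPM 13 and 6, no filter 16 and 7, and 1 fit of 60 libraries 17 and 6. The mean change passed for the same number of genes, 4, under each alternative, including without F36P and with OCIAML2. The test of a difference between lines passed for 10 genes in each alternative except without replicate 2, where it passed for 9 (CEBPB had an FDR of 0.0787). All 10 basal levels differed under each alternative. Of 1557 other values, 1525 stayed on their side of the threshold, 19 moved past it and 13 fell short of it. No value that passed by FDR in the main setting or in the alternative changed direction between them. Values that passed in neither could change sign, as the mean change of CEBPA did, from 0.14 to -0.10 without F36P. Depth limits IRF8 in F36P and HL60, KLF4 in KASUMI1, HL60 and F36P, and CEBPE in OCIAML3 and F36P, which had between 0 and 30 untreated reads in all.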
